A study of Drosophila melanogaster with 12 samples.

Results

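The 87 genes described here encode the proteins of the cytosolic ribosome of Drosophila melanogaster, among 16413 gene names in a table of exon read counts. They were chosen by name, as every gene whose symbol begins with RpL or RpS followed by a number or the letter P, without the "-like" genes and without mitochondrial ribosomal proteins. By these names 50 belong to the large (60S) and 37 to the small (40S) subunit, and 85 of the names are still current. RNA was sequenced from whole third-instar larvae in 4 groups of 3 libraries each, lettered A, B and C. Larvae of an mlx1 null line, kept on high or on low sugar, were set against wild-type controls kept on the same diets. Mlx, the missing protein, binds DNA together with Mondo and turns on genes in response to sugar. All larvae had spent 24 h on 10% yeast before they were moved, and larvae that did not feed were removed. High-sugar larvae were collected 8 h after transfer to 10% yeast with 20% sucrose, and low-sugar larvae 1.5 h after transfer to fresh 10% yeast. Diet therefore cannot be told apart from the hours since transfer, nor from a tag, L2 on low sugar and L3 on high sugar, in the library names. With 1 mutant and 1 control line, the mutation and any other difference between these lines cannot be told apart. Separate cultures are not named for the libraries of a group, so p-values here cover only the spread among the libraries at hand, which may be technical.

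Ribosomal proteins assemble with ribosomal RNA in the nucleolus, and each subunit needs its proteins in fixed proportion. Their mRNAs are among the most abundant in growing larvae, and in animals their translation is adjusted by nutrients through the TOR kinase. In flies the loss of a single copy of many of these genes gives the Minute phenotype of slow development and thin bristles.

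Named genes held 8923055 to 12506335 counts per library. Mlx, listed as bigmax, averaged 0.893 ± 0.168 CPM in mutants on high sugar and 0.694 ± 0.201 CPM in mutants on low sugar, against 32.6 ± 1.92 and 27.0 ± 0.730 CPM in wild type on high and low sugar (SD, n = 3). CPM is a gene's count relative to a fixed library total, here scaled between libraries by TMM, a method that sets most genes to be equal on average. The larvae had muscle transcripts, with 8 marker genes summing to 48084 to 80365 CPM, while 6 genes for the storage proteins that fat body makes late in larval life summed to 4.01 to 13.1 CPM, with 1 at 0 in all libraries. Libraries within a group differed in cuticle genes, which larvae express around a moult. Over 74 of these genes the mean log2 CPM was lowest of its group in library A of mutants on low sugar (3.90), in library C on high sugar of wild type (3.64) and in library A on low sugar of wild type (4.58).

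The counting left reads unassigned where exon entries overlap, and this touched ribosomal protein genes more often than most. Of their 420 exon entries 248 (59.0%) overlap another entry, against 36.0% over the whole table. Of those 248 entries 138 are 0 in all 12 libraries, against 2 of the 172 others. A group of 71 members averaged at least 60 CPM over the 12 libraries, 44 of the large and 27 of the small subunit, with a median of 1237 CPM. This limit was set after the levels were seen, and it lies between RpS15Aa at 51.7 CPM and RpS15Ab at 85.2 CPM. The other 16 members are 10 with most of their exons in overlapping entries, whose few counts come from the remaining stretches, and 6 low paralogs. Of the 87 members 83 had enough counts to be tested. RpL10Aa, RpL40, RpS19b and RpS28a were not tested.

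Levels can be compared between genes only per length of exon. A level in CPM per kb of exon that no other entry covers was taken for 63 tested members, 60 of them at 60 CPM or more. These had at least 100 bases of such exon holding at least 90% of their reads. Over those 60 the median was 2752 CPM per kb, the 25th and 75th percentiles were 2141 and 3517 CPM per kb, and 53 lay within a factor of 2 of the median. The highest level was that of RpLP1 (2L:419952-420864), an acidic protein of the stalk that recruits elongation factors. This level rests on 195 of the 768 exon bases of RpLP1, and the effect of so short a stretch was not tested. RpLP1 averaged 8750.2 ± 269 CPM per kb in mutants on high sugar and 7392 ± 164 on low sugar, compared with 7958 ± 207 and 8161 ± 1072 in wild type on high and low sugar (SD, n = 3). Its stalk partner RpLP2 followed at 5484 CPM per kb over the 12 libraries. The lowest of the 60 were RpS15Ab at 118 CPM per kb, RpS14b at 311, RpL34a at 789, RpL24 at 832 and RpS14a at 1056, of which RpL24 has no second copy among the members. Positions are those of the deposited table, whose genome build is not given in the sources used here.

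Summed over the 87 genes, ribosomal protein mRNA moved in opposite directions with diet in mutants and wild type. Libraries A, B and C summed to 113791, 104738 and 113121 CPM in mutants on high sugar and 97269, 97302 and 92867 CPM in mutants on low sugar. Those of wild type summed to 96732, 86566 and 97452 CPM on high sugar and 110051, 108110.0 and 104960.0 CPM on low sugar. On high against low sugar the libraries of the groups did not overlap in either genotype, and the mean sum was 15.4% higher in mutants and 13.1% lower in wild type. Mutants had 18.1% more than wild type on high sugar and a difference of -11.0% on low sugar, again with no overlap. Library B of wild type on high sugar was the lowest of all, and without it the difference in wild type was -9.86% and that between genotypes on high sugar 13.9%. Libraries of mutants on high sugar overlapped with those of wild type on low sugar, and libraries of wild type on high sugar with those of mutants on low sugar, so the groups have no single order. As a share of a library's counts, the genes held 11.1 ± 0.416% in mutants on high sugar and 9.75 ± 0.215% on low sugar, against 9.25 ± 0.634% and 10.7 ± 0.258% in wild type on high and low sugar (SD, n = 3). In bulk RNA, a lower level can be fewer cells of a type or less RNA per cell, which cannot be told apart.

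Both subunits shared these differences. The 60S genes were 15.8% and the 40S genes 14.7% higher on high sugar in mutants, and different by -12.6% and -14.0% on high sugar in wild type. The ratio of summed 60S to summed 40S CPM was 1.68 ± 0.00885 in mutants on high sugar and 1.66 ± 0.00304 on low sugar, against 1.68 ± 0.00899 and 1.65 ± 0.0198 in wild type on high and low sugar (SD, n = 3). Among libraries of a group, the median coefficient of variation over the 71 members with the most counts, described above, was 5.39% in mutants on high sugar, 5.48% in mutants on low sugar, 7.45% in wild type on high sugar and 6.25% in wild type on low sugar.

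**Figure D1:**
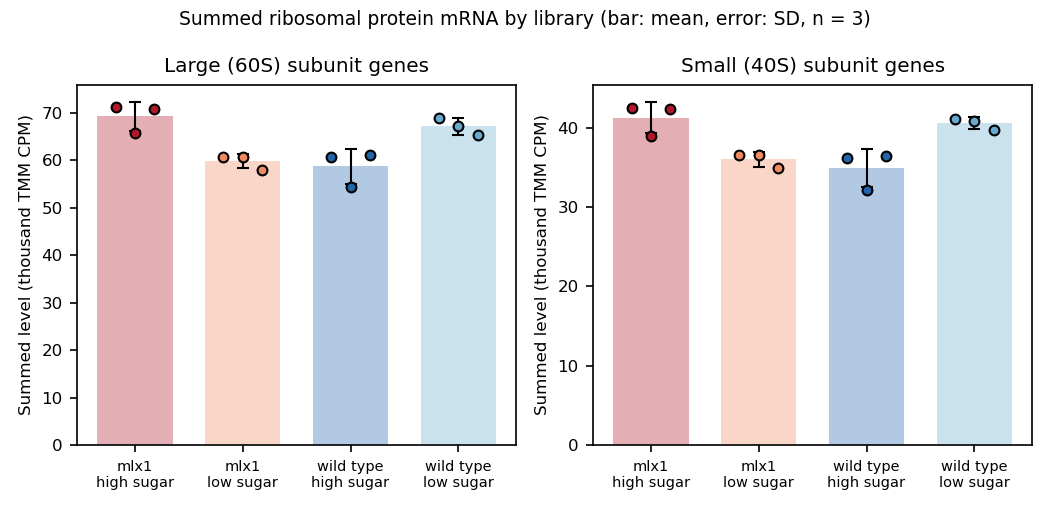
Summed level of the 60S (left) and 40S (right) ribosomal protein genes in TMM-scaled CPM (axis in units of 1000), by group; points are libraries A, B and C, bars the mean and error bars the SD (n = 3). In both panels the points of mutants on high sugar lie above those of mutants on low sugar, and the points of wild type on high sugar lie below those of wild type on low sugar.

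In mutants, high sugar went with slightly higher levels of nearly all members. Tests of single genes used edgeR's quasi-likelihood model on all 12 libraries, with log2 fold changes given as the estimate ± its standard error, and p-values adjusted by Benjamini-Hochberg over the 10045 genes tested. A gene was called at an adjusted p under 0.05. Of the 83 members 13 were called (29.3% of all genes were), of which 12 rose (13.5% of all genes did) and 1 fell (15.7% of all genes), so the calls alone are not above the share over all genes. By an unadjusted p under 0.05, 45 members differed (40.2% of all genes did). Among the 71 well counted members 9 rose, 68 were on the higher side of zero, and 52 had all mutant libraries on high sugar above all on low sugar, against 21.5% of all genes, and none had them all below, against 23.2%. Over the 83 tested, 56 had them all above and 2 all below. Shares over all genes, here and below, include tested genes of any level and were not taken at 60 CPM or more alone. The median log2 fold change of the 71 was 0.22, or 1.16-fold, against -0.01 over all genes. The estimates ran from -0.09 to 0.30, with 25th and 75th percentiles of 0.16 and 0.25, while over all genes these percentiles were -0.36 and 0.30.

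RpL32 (3R:25870951-25871883), a 60S protein whose mRNA is often used as a loading reference in fly work, had 326, 323 and 314 CPM in mutants on high sugar, against 273, 267 and 251 CPM in mutants on low sugar. The groups did not overlap, and the log2 fold change was 0.28 ± 0.09 (adjusted p = 0.0259). RpL26 (3L:18891975-18893017), which sits near the exit of the peptide tunnel, had 2727, 2483 and 2675 CPM in mutants on high sugar, against 2198, 2253 and 2033 CPM in mutants on low sugar, a log2 fold change of 0.28 ± 0.09 (adjusted p = 0.0268). RpL31, another protein near the tunnel exit, changed by 0.28 ± 0.09 (adjusted p = 0.0410) and the 60S protein RpL36 by 0.27 ± 0.09 (adjusted p = 0.0348). All libraries of mutants on high sugar lay above those on low sugar for these genes.

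RpS6 (X:7793657-7795364), the 40S protein phosphorylated by S6 kinase downstream of TOR, had 3471, 3192 and 3411 CPM in mutants on high sugar, against 2809, 2859.7 and 2517 CPM in mutants on low sugar. It rose by 0.30 ± 0.10 (adjusted p = 0.0412) on the log2 scale, with no overlap. The other 40S genes called were RpS13, RpS27, RpS4 and RpS14b, with log2 fold changes of 0.25, 0.26, 0.26 and 0.27. The 4 further calls were of members under 60 CPM. RpL37b averaged 1.97 ± 0.283 CPM on high and 0.883 ± 0.0173 CPM on low sugar (SD, n = 3). Its rise of 1.14 ± 0.29 (adjusted p = 0.0118) was also called without any single library. RpS5b and RpS9 rose by 0.52 ± 0.17 (adjusted p = 0.0410) and 0.45 ± 0.15 (adjusted p = 0.0418). Only 2.42% of the reads of RpS9 lie in exon that no other entry covers. RpS19a, counted only in overlapping exons, was the member that fell, with a log2 fold change of -0.69 ± 0.20 (adjusted p = 0.0212). The count of calls rested on single libraries. In place of 13 members it was 1 without library A, 1 without library B and 2 without library C of the mutant high-sugar group, 5 without library A, 8 without library B and 2 without library C of the mutant low-sugar group, 6 without library A and 7 without library C of the wild-type high-sugar group and 4 without library B of the wild-type low-sugar group, while the median log2 fold change stayed between 0.19 and 0.23.

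In wild type the same diet contrast went the other way. Of the 83 members 12 were called (23.1% of all genes were); none rose (11.5% of all genes did) and 12 fell (11.6% of all genes), a share of 14.5% that is near the one over all genes. By an unadjusted p under 0.05, 35 members differed (36.6% of all genes did). Among the 71 well counted genes 63 were on the lower side of zero and 39 had all libraries on high sugar below all on low sugar, against 21.6% of all genes, while RpL6 alone had them all above, against 18.5%. Over the 83 tested, 39 had them all below and 3 all above. The median log2 fold change of the well counted genes was -0.19, against -0.05 over all genes, with estimates from -0.43 to 0.31.

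The smallest p was that of RpS20 (3R:16647903-16649078), a protein of the 40S head near the mRNA path. RpS20 had 998, 834 and 986 CPM in wild type on high sugar, against 1294, 1247 and 1262 CPM in wild type on low sugar. Its log2 fold change was -0.43 ± 0.10 (adjusted p = 0.00754), and library B on high sugar was the lowest. Of its reads 60.8% lie in exon that no other entry covers. RpL34a, of the 60S subunit, had 347, 312 and 357 CPM in wild type on high sugar, against 432, 429 and 477 CPM in wild type on low sugar. The log2 fold change of RpL34a was -0.40 ± 0.09 (adjusted p = 0.00986). Both genes kept their call in each of the 12 fits without 1 library and in each of the 12 other settings tried.

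RpL28 (3L:3220911-3222960), a 60S protein found in animal but not in yeast ribosomes, had 1396, 1219 and 1265 CPM in wild type on high sugar, against 1915, 1755 and 1548 CPM in wild type on low sugar. It fell with no overlap between the groups and a log2 fold change of -0.43 ± 0.10 (adjusted p = 0.0108). RpL17 (X:6635570-6638290), which lines the peptide exit tunnel, had 1738, 1417 and 1588 CPM in wild type on high sugar, against 2095, 2055 and 2146 CPM in wild type on low sugar, a log2 fold change of -0.41 ± 0.10 (adjusted p = 0.0123). RpL13, of the 60S subunit, changed by -0.39 ± 0.10 (adjusted p = 0.0130). Other genes that fell were RpS2, RpS7, RpS12, RpL18 and RpL35A, with log2 fold changes from -0.37 to -0.29. Of the reads of RpL18 only 16.8% lie in exon that no other entry covers. RpS12 is known in the fly for its part in the competition between wild-type and Minute cells. In place of 12 members the count of calls was 2 without library B of the wild-type high-sugar group and 7 without library A and 5 without library B of the wild-type low-sugar group.

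**Figure D2:**
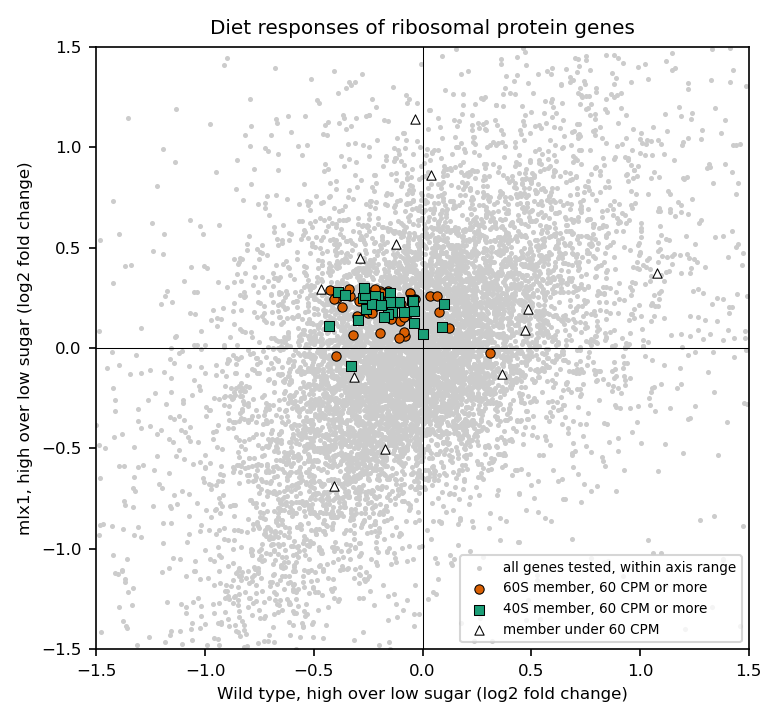
Log2 fold change on high over low sugar in mlx1 mutants (vertical) against that in wild type (horizontal), 1 point per gene, with 60S members as circles, 40S members as squares, members under 60 CPM as open triangles and all genes tested within the axis range in grey. Of the 71 members at 60 CPM or more, 61 lie in the upper left part, higher in mutants and lower in wild type.

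The plot of both diet responses shows 61 of the 71 well counted members with an estimate above zero in mutants and below zero in wild type, against 19.0% of all genes. Of the other members 7 were above zero in both genotypes, 2 were below zero in both, and 1 was above zero in wild type and below zero in mutants. The diet contrasts of the genotypes share no library. The members moved together by library, so the 71 are not separate observations of a diet. Libraries A, B and C of mutants on high sugar had 71, 63 and 70 of them above their own mean over the 12 libraries. In wild type on high sugar these counts were 6, 2 and 13.

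On high sugar, all 71 well counted members had estimates above zero in mutants over wild type. Of the 83 tested, 8 were called (13.9% of all genes were), of which 8 rose (6.80% of all genes did) and none fell (7.06% of all genes). The share of 9.64% called is thus not above the one over all genes in either direction. By an unadjusted p under 0.05, 46 of the 83 differed (26.7% of all genes did). All libraries of mutants lay above all of wild type for 61 of the 71, against 19.2% of all genes, and for none all below, against 18.6%. Over the 83 tested these counts were 63 and 0. The median log2 fold change was 0.24, against 0.00 over all genes. The mutant libraries are shared with the diet contrast in mutants and the wild-type libraries with that in wild type.

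RpS20 had 1265, 1149 and 1267 CPM in mutants on high sugar, against 998, 834 and 986 CPM in wild type on high sugar, a log2 fold change of 0.39 ± 0.10 (adjusted p = 0.0186). RpL17 and RpL13, both lower on high sugar in wild type, rose by 0.37 ± 0.10 (adjusted p = 0.0275) and 0.35 ± 0.10 (adjusted p = 0.0317). RpS29, a small zinc-binding protein of the 40S head, had 353, 328 and 359 CPM in mutants on high sugar, against 276, 243 and 295 CPM in wild type on high sugar, which did not overlap, and rose by 0.35 ± 0.10 (adjusted p = 0.0342). RpS4 and RpS18, both of the 40S subunit, changed by 0.32 ± 0.09 (adjusted p = 0.0371) and 0.31 ± 0.09 (adjusted p = 0.0374). RpS14b and RpS30, which is made as a fusion with a ubiquitin-like protein, were the remaining calls, at 0.31 and 0.32. Of the 8 genes 6 encode 40S proteins, while 27 of the 71 well counted members do. The median log2 fold change was close in both subunits, at 0.24 for well counted 60S and 0.25 for well counted 40S genes. In place of 8 members the count was 0 without library A, 1 without library B and 0 without library C of the mutant high-sugar group, 3 without library C of the mutant low-sugar group, 4 without library A, 0 without library B and 4 without library C of the wild-type high-sugar group and 4 without library B of the wild-type low-sugar group.

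On low sugar the estimates lay mostly on the other side. The median log2 fold change of mutants over wild type was -0.16 over the 71 well counted genes, against 0.01 over all genes. Of these 71 genes 56 were below zero, and for 35 all libraries of mutants lay below all of wild type, against 9.38% of all genes. For RpS15Ab all lay above, against 9.26% of all genes. Over the 83 tested, 37 had them all below and 4 all above. Only 1 of the 83 members passed the test (3.59% of all genes did), in the lower direction (1.77% of all genes), and none in the higher (1.82% of all genes), while 32 had an unadjusted p under 0.05 (18.4% of all genes did). The gene that fell was RpL28, with 1227, 1366 and 1228 CPM in mutants on low sugar, against 1915, 1755 and 1548 CPM in wild type on low sugar. Its libraries did not overlap between genotypes, and the log2 fold change was -0.45 ± 0.10 (adjusted p = 0.0315). In place of 1 member the count was 0 without library A, 0 without library B and 0 without library C of the mutant high-sugar group, 0 without library A and 0 without library C of the mutant low-sugar group and 0 without library A, 0 without library B and 3 without library C of the wild-type low-sugar group. Between genotypes, low-sugar libraries of the same letter had deviations from the group means that correlated for A (r = 0.74) and B (0.69), and weakly for C (0.17). Library C of wild type correlated more with library B of mutants (0.39), so the letters may not mark pairs. With the letter as a block on these 6 libraries 9 members were called, 8 lower (4.43% of all genes) and 1 higher (4.38% of all genes). They include RpL28, RpS6 and, as the higher one, RpS15Aa, which was not called without the block.

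The difference between these diet responses was tested as the genotype by diet interaction, the log2 fold change on sugar in mutants minus that in wild type. Its unadjusted p was under 0.05 for 51 of the 83 members (23.9% of all genes). It was positive for 69 of the 71 well counted members, with a median of 0.41, against 0.01 over all genes. Of the 83 members 18 were called (6.89% of all genes were), all higher (3.32% of all genes) and none lower (3.57% of all genes). Between the diets, 35 of the 71 had libraries that did not overlap in either genotype, higher in mutants and lower in wild type (1.59% of all genes did). For 31 of these the genotypes did not overlap on either diet as well, higher in mutants on high sugar and lower in mutants on low sugar (0.786% of all genes). Of the 18 called members 17 had this pattern, which the interaction call itself favours, against 17.4% of all genes with an interaction called higher. RpS20 was the exception, since its libraries overlapped between diets in mutants.

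The largest interaction among the members called was that of RpL28, with 1558, 1496 and 1611 CPM in mutants on high sugar and 1227, 1366 and 1228 CPM on low sugar, against 1396, 1219 and 1265 CPM on high and 1915, 1755 and 1548 CPM on low sugar in wild type. Its interaction was 0.72 ± 0.14 (adjusted p = 0.0148) on the log2 scale, and the call held in each of the 12 fits without 1 library. RpL17 and RpL13 had interactions of 0.65 ± 0.14 (adjusted p = 0.0206) and 0.64 ± 0.14 (adjusted p = 0.0198). RpS7, of the 40S subunit, had 1827, 1699 and 1849.9 CPM in mutants on high sugar and 1538, 1573 and 1361 CPM on low sugar, against 1608, 1355 and 1488 CPM on high and 2039, 1949 and 1710.3 CPM on low sugar in wild type. Its interaction was 0.62 ± 0.15 (adjusted p = 0.0295). Further calls were RpL18, RpS4, RpS20, RpS6, RpL31, RpL26, RpL35, RpS27, RpL36, RpS13, RpL35A and RpL32, from 0.44 to 0.59. By subunit, 11 of 44 well counted 60S and 7 of 27 well counted 40S genes were called. In place of 18 members the count was 1 without library A, 4 without library B and 1 without library C of the mutant high-sugar group, 8 without library A and 1 without library C of the mutant low-sugar group, 1 without library B and 4 without library C of the wild-type high-sugar group and 9 without library A and 1 without library B of the wild-type low-sugar group. The median over the 83 members stayed between 0.33 and 0.43 in those fits.

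**Figure D3:**
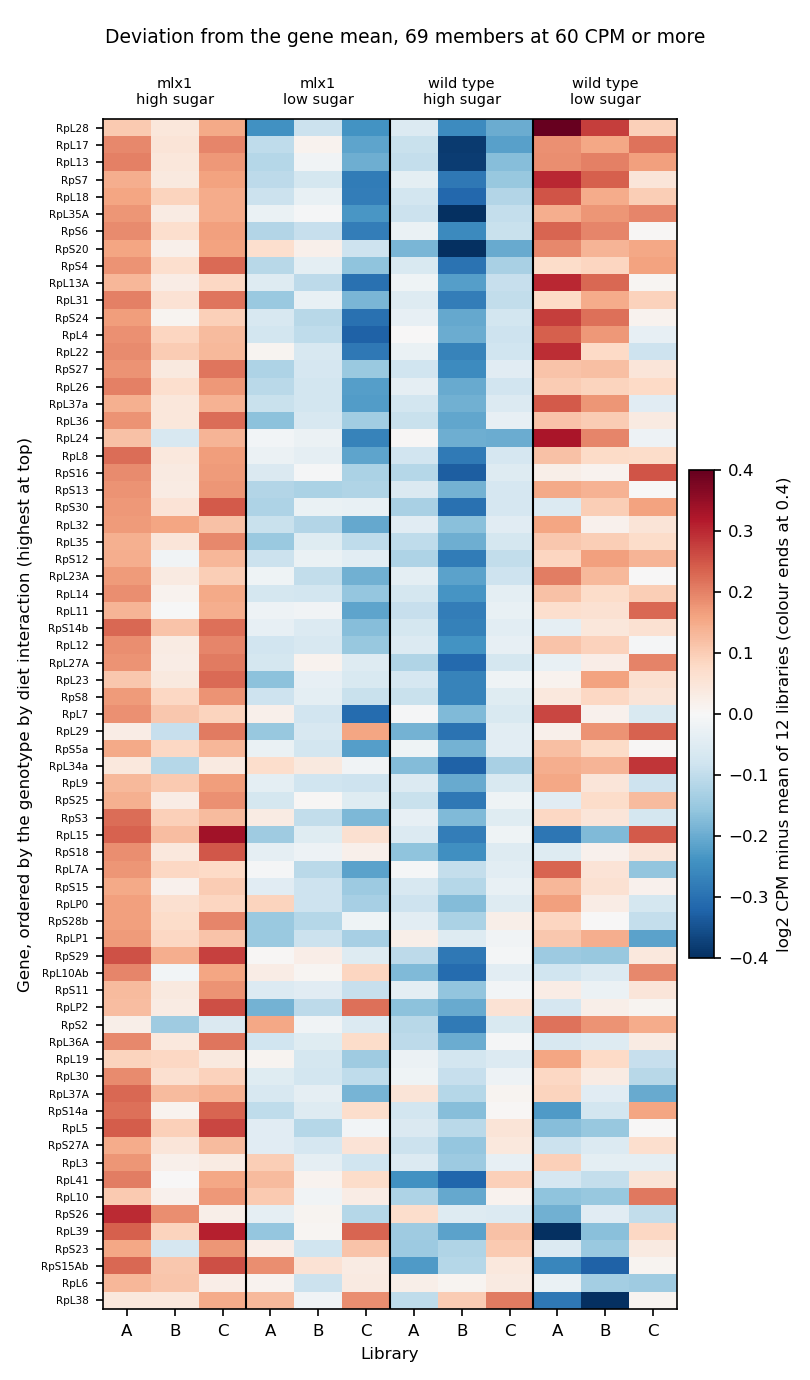
Deviation of the log2 CPM of 69 members at 60 CPM or more from its mean over the 12 libraries, with rows ordered by the interaction and columns A, B and C in each of the 4 groups; red is higher, blue lower, and the colour ends at 0.4. Mutants on high sugar are red and wild type on high sugar blue in most rows, and the rows at the bottom, down to RpL38, do not share this pattern.

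Not every well counted member followed. RpL38, a small 60S protein known in mice for its part in translating Hox mRNAs, had 178, 178 and 191 CPM in mutants on high sugar and 189, 171 and 196 CPM on low sugar, against 161, 186 and 199 CPM on high and 142, 125 and 174 CPM on low sugar in wild type. Its interaction was -0.33 ± 0.18 (adjusted p = 0.292), the lowest estimate of the 71 and not called. RpL6, of the 60S subunit, averaged 406 ± 15.7 and 378 ± 16.7 CPM in mutants on high and low sugar, against 387 ± 3.25 and 355 ± 16.4 CPM in wild type (SD, n = 3). Its interaction estimate was -0.02 ± 0.12 (adjusted p = 0.939). RpL39, which lines the exit tunnel, and RpL15 varied widely between libraries of wild type on low sugar. RpL15 had 1218, 1316 and 1762 CPM there, a coefficient of variation of 20.3%, and RpL39 had 326, 382 and 454 CPM.

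The proteins of the stalk were not called in any contrast. RpLP0, the stalk base, averaged 4319 ± 158 CPM in mutants on high sugar and 3906 ± 322 on low sugar, against 3739.7 ± 164 and 4137 ± 337 CPM in wild type on high and low sugar (SD, n = 3). Its interaction was 0.29 ± 0.13 (adjusted p = 0.216), that of RpLP1 0.28 ± 0.14 (adjusted p = 0.257) and that of RpLP2 0.24 ± 0.17 (adjusted p = 0.415). RpLP2 had 2891, 3062 and 3838 CPM in mutants on low sugar, where library C was highest, and the groups overlapped in all 4 contrasts. The 5S RNA-binding proteins RpL5 and RpL11, which enter the large subunit together with that RNA, gave interactions of 0.19 ± 0.13 (adjusted p = 0.398) and 0.42 ± 0.14 (adjusted p = 0.0983). RpL5 had 1795, 1622 and 1826 CPM in mutants on high sugar, against 1472, 1403 and 1508 CPM in mutants on low sugar, which did not overlap, while in wild type its libraries on high and low sugar overlapped.

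RpS27A, which is made as a fusion with ubiquitin, averaged 2288 ± 82.5 CPM in mutants on high sugar and 2096 ± 95.2 on low sugar, against 2030.1 ± 142 and 2089 ± 119 CPM in wild type on high and low sugar (SD, n = 3). No contrast called it. The other ubiquitin fusion, RpL40, has all its exon entries overlapping and held 66 reads in all 12 libraries. RpS3, a 40S protein at the mRNA entry and the gene of a strong Minute, gave log2 fold changes of 0.23 ± 0.09 (adjusted p = 0.0833) on sugar in mutants and -0.11 ± 0.09 (adjusted p = 0.433) in wild type. RpL10, which joins the large subunit late, gave 0.06 ± 0.11 (adjusted p = 0.739) and -0.08 ± 0.11 (adjusted p = 0.651). RpL41, the shortest protein of the ribosome, gave 0.05 ± 0.11 (adjusted p = 0.785) and -0.11 ± 0.11 (adjusted p = 0.528). None of these passed the test.

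**Figure D4:**
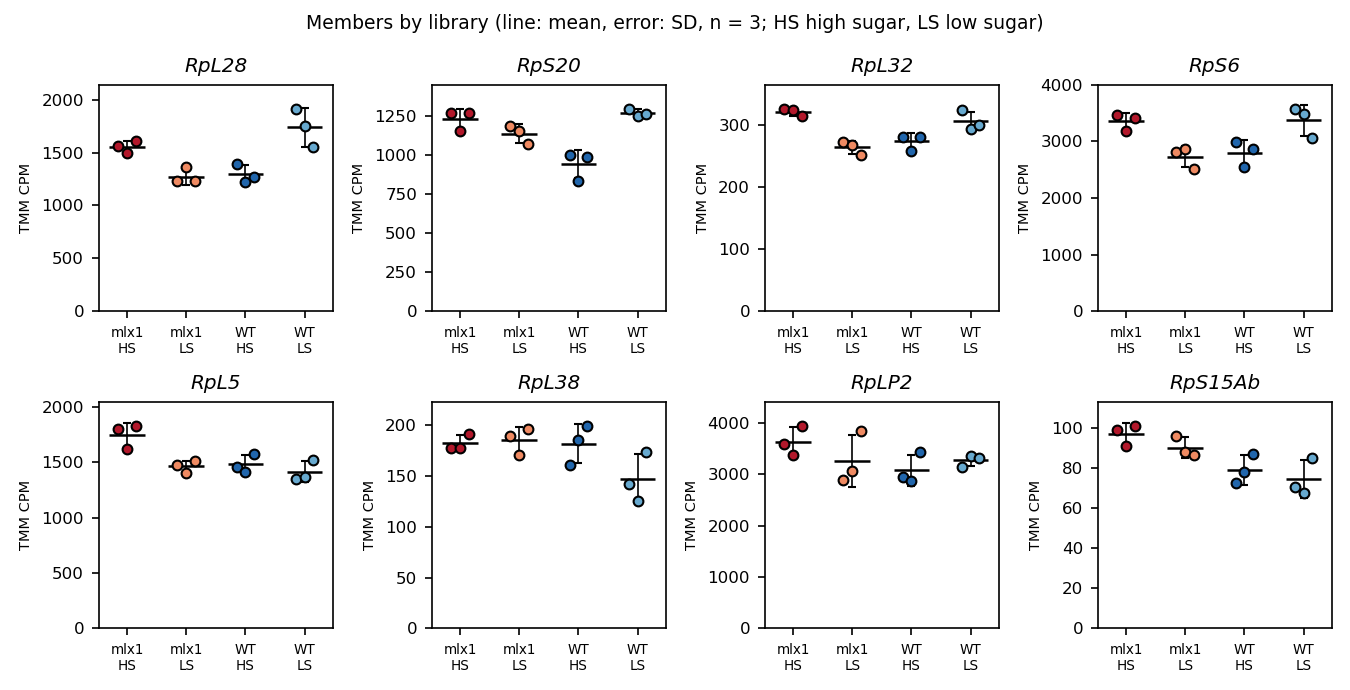
TMM-scaled CPM of 8 members by library and group, with the mean as a line and the SD as an error bar (n = 3); each vertical axis starts at 0. RpL28 and RpS6 are higher in mutants on high than on low sugar and lower in wild type on high than on low sugar, while RpL38 has its lowest libraries in wild type on low sugar and RpS15Ab is higher in mutants than in wild type on both diets.

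Several members have a second gene copy, and where copies are nearly identical the split of reads between them is uncertain. RpS14a (X:7827775-7828710) and RpS14b (X:7828931-7829825) lie side by side on the X chromosome. RpS14a had 432, 375 and 436 CPM in mutants on high sugar, against 352, 329.7 and 372 CPM in wild type on high sugar, a log2 fold change of 0.24 ± 0.11 (adjusted p = 0.212). RpS14b had 216, 199 and 214 CPM in mutants on high sugar, against 175, 152 and 179 CPM in wild type on high sugar, a log2 fold change of 0.31 ± 0.09 (adjusted p = 0.0432). For both copies the mutant libraries on high sugar lay above those of wild type. RpS15Ab had values apart by genotype, with 99.0, 91.1 and 101 CPM in mutants on high sugar and 96.1, 87.9 and 86.4 CPM on low sugar, against 72.3, 78.1 and 87.0 and 70.5, 67.5 and 85.1 CPM in wild type on high and low sugar. The genotypes did not overlap on either diet, yet neither difference passed the test, at 0.29 ± 0.11 (adjusted p = 0.107) on high and 0.28 ± 0.11 (adjusted p = 0.213) on low sugar.

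In some other pairs 1 copy held nearly all counts. RpS5a averaged 2463 ± 60.2 CPM in mutants on high sugar and 2104 ± 144 on low sugar, against 2139 ± 134 and 2371 ± 96.0 CPM in wild type. RpS5b, known from the ovary, averaged 11.3 ± 0.473 and 7.89 ± 0.629 CPM in mutants on high and low sugar, against 9.21 ± 1.90 and 10.0 ± 1.73 CPM in wild type (SD, n = 3). RpS10a, known from the germ line, stood at 1.43 ± 0.482 and 0.782 ± 0.325 CPM in mutants and 0.789 ± 0.131 and 0.762 ± 0.140 CPM in wild type, the lowest level per length of the tested members with such a level. Its partner RpS10b lies in overlapping entries and averaged only 5.05 ± 1.33 and 5.58 ± 0.808 CPM in mutants and 4.05 ± 1.13 and 5.04 ± 0.681 CPM in wild type, so these copies cannot be compared. Germ-line markers, 7 genes with none at 0, summed to 21.4 to 24.3 CPM on high and 15.5 to 19.3 CPM on low sugar in mutants, against 15.7 to 18.2 and 13.0 to 17.0 CPM in wild type. Of 6 tested, aub rose on sugar in mutants and no other was called in any contrast. The part of these markers in the calls of RpS5b and RpL37b was not tested.

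RpL10Ab had 1544, 1339 and 1505 CPM in mutants on high sugar, against 1194, 1089 and 1308 CPM in wild type on high sugar, while RpL10Aa held 2 reads in all. Only 0.0367% of the reads of RpL10Ab lie in exon that no other entry covers, and 1 of its 4 entries overlaps another gene. RpS28b had 1051, 987 and 1075 CPM in mutants on high sugar, against 847, 867 and 928 CPM on low sugar, and RpS28a held none. RpS19b, known from the ovary, averaged 0.821 ± 0.0611 and 0.756 ± 0.153 CPM in mutants and 0.646 ± 0.154 and 0.959 ± 0.263 CPM in wild type on high and low sugar (SD, n = 3). The RpL37 copies are listed as RpL37a on the X chromosome, at 809 ± 30.8 and 687 ± 39.1 CPM in mutants and 697 ± 35.2 and 821 ± 83.8 CPM in wild type, and RpL37b, now called RpL37-2, described above. RpL34b and RpS15Aa, whose exons mostly overlap other entries, gave diet responses of -0.50 ± 0.24 (adjusted p = 0.143) and 0.09 ± 0.18 (adjusted p = 0.756) in mutants. In wild type these were -0.17 ± 0.24 (adjusted p = 0.635) and 0.47 ± 0.19 (adjusted p = 0.0862).

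Genes that work beside ribosomal proteins were set next to them by lists. Nucleolar ribosome biogenesis genes make and process ribosomal RNA and assemble subunits. Of 22 tested 20 fell and 1 rose on high sugar in mutants, with a median log2 fold change of -1.34, and 18 fell and 1 rose in wild type, with a median of -0.72. Fib, the fibrillarin that methylates ribosomal RNA, averaged 147 ± 16.8 CPM in mutants on high sugar and 353 ± 12.9 on low sugar, against 201 ± 29.1 and 418 ± 51.4 CPM in wild type (SD, n = 3). Nmd3, the export adaptor of the 60S subunit, changed by -0.81 ± 0.11 (adjusted p = 1.84e-04) in mutants and -0.71 ± 0.11 (adjusted p = 8.84e-04) in wild type. The gene that rose in both genotypes was CG8801 (Non1), a nucleolar GTP-binding protein, at 0.74 ± 0.14 (adjusted p = 0.00188) and 0.60 ± 0.14 (adjusted p = 0.00925). The interaction was called lower for 9 of the 22, with a median of -0.61, opposite in sign to the 0.41 of ribosomal proteins. The list also holds Rrp1, a DNA repair nuclease, which was not called. On high sugar 12 of the 22 were lower in mutants than in wild type, with a median of -0.47, and on low sugar none was called.

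Mitochondrial ribosomal proteins are also encoded in the nucleus. Of 70 tested, 52 fell and none rose on high sugar in mutants, with a median of -0.48, and 21 fell and 1 rose in wild type, with a median of -0.27. Their interaction was called lower for 1 gene and higher for none, with a median of -0.23. Between genotypes 5 were lower in mutants on high sugar, with a median of -0.23, and none was called on low sugar. Translation elongation and ribosome partners showed no common direction, with 1 of 15 higher and 4 lower on sugar in mutants, and 1 higher and 5 lower in wild type. In mutants over wild type 1 was higher and 2 were lower on high sugar, and 2 were lower on low sugar. This list includes sta, a 40S protein gene that the symbols RpL and RpS do not catch. It averaged 3049.8 ± 135 CPM in mutants on high sugar and 2983 ± 198 on low sugar, against 2583 ± 238 and 3461 ± 373 CPM in wild type (SD, n = 3), and fell on sugar in wild type, with a log2 fold change of -0.42 ± 0.11 (adjusted p = 0.0151). Ef1beta, an exchange factor of elongation, was the gene of the list with an interaction called higher, at 0.52 ± 0.14 (adjusted p = 0.0460), while eEF1delta was called lower, at -0.78 ± 0.19 (adjusted p = 0.0362). Of 3 tested "-like" paralogs, RpL22-like, known from the testis, rose on sugar in mutants by 0.64 ± 0.13 (adjusted p = 0.00368). RpLP0-like, a nucleolar assembly factor, fell in both genotypes, with log2 fold changes of -1.50 ± 0.14 (adjusted p = 2.16e-05) in mutants and -0.88 ± 0.14 (adjusted p = 0.00118) in wild type. RpL24-like fell in wild type, at -0.41 ± 0.11 (adjusted p = 0.0189). Between genotypes on high sugar 1 of the 3 was higher and 1 lower in mutants, and neither the low-sugar contrast nor the interaction called any.

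Among 21 growth and translation regulators 8 rose and 2 fell on sugar in mutants, and 6 rose and 1 fell in wild type. On high sugar 5 were higher in mutants than in wild type, on low sugar none was called, and the interaction was called higher for 4. Thor, the inhibitor of cap-dependent translation that TOR holds off, averaged 1179 ± 132 CPM in mutants on high sugar and 190.1 ± 61.5 on low sugar, against 686 ± 54.9 and 307 ± 15.4 CPM in wild type (SD, n = 3). Its interaction was 1.47 ± 0.27 (adjusted p = 0.0102). CG18619 (REPTOR-BP), a partner of the TOR-restrained transcription factor REPTOR, and Rheb, the activator of TOR, had interactions of 1.00 ± 0.26 (adjusted p = 0.0411) and 0.66 ± 0.12 (adjusted p = 0.0108). The Myc gene dm was not called, with log2 fold changes on sugar of -0.44 ± 0.24 (adjusted p = 0.188) in mutants and -0.28 ± 0.24 (adjusted p = 0.417) in wild type. Xrp1, a factor raised in Minute cells, rose by 0.73 ± 0.11 (adjusted p = 5.35e-04) and 0.38 ± 0.11 (adjusted p = 0.0310). S6k and larp, a TOR target that binds mRNAs of ribosomal proteins, gave interactions of -0.21 ± 0.18 (adjusted p = 0.505) and -0.41 ± 0.14 (adjusted p = 0.113), neither called.

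**Figure D5:**
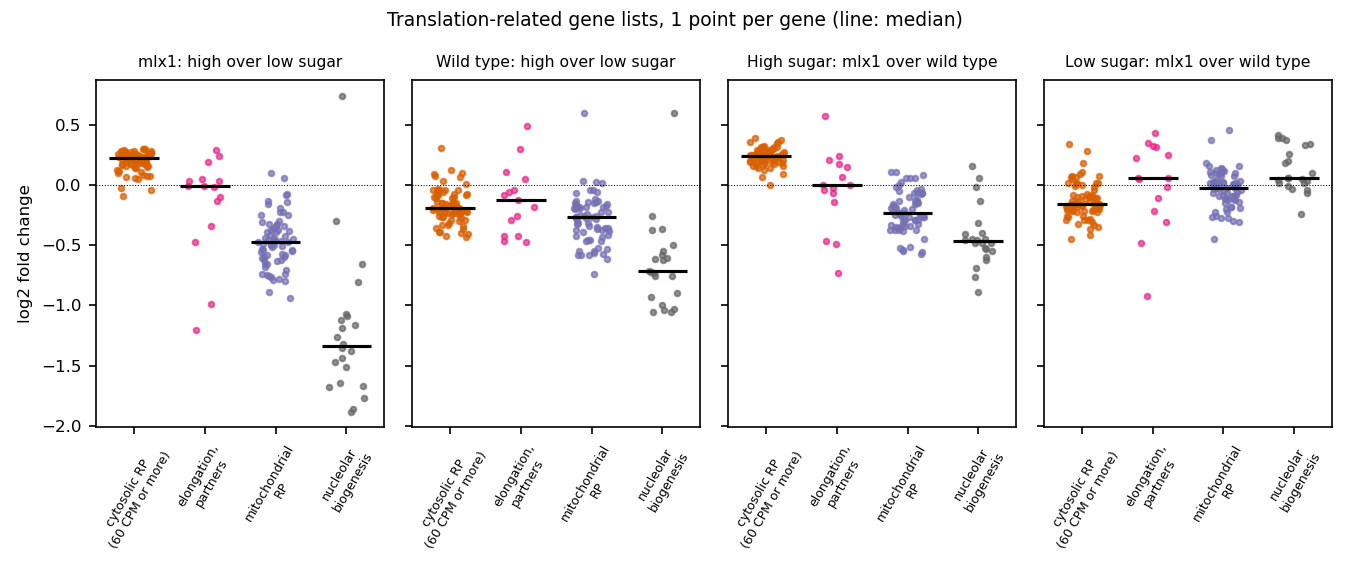
Log2 fold changes in the 4 contrasts for cytosolic ribosomal proteins at 60 CPM or more, elongation factors and partners, mitochondrial ribosomal proteins and nucleolar biogenesis genes, 1 point per gene with the median as a line. The medians of cytosolic ribosomal proteins are 0.22 on sugar in mutants and -0.19 in wild type, while those of nucleolar biogenesis are -1.34 and -0.72.

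Markers of other tissues also moved with the groups, and their part in the differences above was not tested. Cuticle genes summed to 12892 to 18099 CPM in mutants on high sugar and 14212 to 32334 CPM on low sugar, against 13711 to 23103 CPM and 26944 to 51909.8 CPM in wild type on high and low sugar, over 99 genes of which 5 were at 0 in all libraries. Mutants on high sugar lay between 4.27 and 4.70 in the mean log2 CPM of cuticle genes, and none of their libraries was left out with the 3 named above as lowest of their groups. Without those 3 libraries the median log2 fold changes of the 83 members were 0.22 on sugar in mutants, -0.20 in wild type and 0.43 for the interaction. The interaction then called 2 members. With the mean cuticle level as a covariate these medians were 0.21, -0.19 and 0.39. Markers of proliferating cells, 9 genes, all fell on sugar in mutants and 6 fell in wild type. They summed to 273 to 305 CPM in mutants on high sugar and 526 to 735 CPM on low sugar, against 344 to 382 and 509.6 to 639.5 CPM in wild type. Midgut markers, 9 genes, of which 4 rose on sugar in mutants and 7 in wild type, summed to 3503 to 4117 and 3424 to 3953 CPM in mutants, against 3984 to 5651 and 3294 to 4155 CPM in wild type. Salivary gland markers, 6 genes with 1 at 0, summed to 241 to 325 and 21.9 to 28.6 CPM in mutants, against 221 to 484 and 46.8 to 105 CPM in wild type on high and low sugar. Muscle markers, 8 genes, had 1 called higher on sugar in mutants, 2 in wild type and 1 in mutants over wild type on high sugar. Their median log2 fold change was 0.24 on sugar in mutants and 0.24 between genotypes on high sugar, close to the 0.22 and 0.24 of the ribosomal proteins. It was 0.10 on sugar in wild type, 0.12 between genotypes on low sugar and 0.23 for the interaction, where well counted ribosomal proteins had -0.19, -0.16 and 0.41. The muscle markers summed to 74762 to 80365 and 61566 to 73935 CPM in mutants, against 65463 to 71120.4 and 48084 to 72227 CPM in wild type. The 5 neuron markers were not called in any contrast, and the 5 testis markers summed to at most 0.992 CPM.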

How the data were processed

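Polyadenylated RNA of whole larvae was sequenced in 12 libraries. The authors deposited raw read counts per exon entry, whole numbers not scaled for depth or length, and per the submitters' processing notes processing used HTSeq 0.6.1, SAMtools and BWA 0.5.9. Which genome build and annotation were used, and whether counting used strand, is not given in the sources used here, so reads of overlapping antisense genes cannot be told apart. Counts were summed over the entries of each gene. Of all entries 42 without a gene name (at most 0.0148% of a library) were left out. edgeR 4.0.16 (R 4.3.3) was used with filterByExpr, TMM factors of 0.961 to 1.048, and a robust quasi-likelihood fit with 1 mean per group and 8 residual degrees of freedom. Tests were two-sided, and p-values were adjusted by Benjamini-Hochberg over 10045 genes. The step was tested on simulated counts of genes drawn independently, with changes larger than the diet responses of well counted members. That test does not cover small changes or genes that move together by library. DESeq2 1.42.0, other scalings and filters, exon subsets, a cuticle covariate, a replicate block and leaving out libraries were alternatives. An alternative without 3 libraries low in cuticle genes, one restricted to entries overlapping no other entry, and leaving out libraries for the summed share were added after the data were seen. Figures were drawn with matplotlib 3.10.9.

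The members and lists were chosen with earlier results of these data known. Named genes were up to 6 called members per contrast and direction by p with groups that do not overlap, members fixed by name (paralog pairs and those of known role), the extremes per length and those not tested. Where fewer than 3 were called, the 3 with the smallest p were named. RpL6, RpL15, RpL39, RpS9 and the further calls listed were added after their values were seen. Genes of the lists were named by call, role or contrast with the members after their values were seen. Values of 2 members are not reported singly here. Deviations from the group means, over all genes tested, correlated between same-lettered low-sugar libraries of mutants and wild type (r = 0.74 for A, 0.69 for B and 0.17 for C). These correlations passed the limit of 0.1 set for every pair, so a fit of the 6 low-sugar libraries with the letter as a block was added after the data were seen. Over the other pairs of groups the letters did not pair the libraries by this limit. Between different letters the low-sugar correlations ran from -0.68 to 0.39. The highest was that of library C of wild type with library B of mutants, above that of the C libraries. Whether the letters mark a shared origin was not tested.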

Additional observations from a re-analysis of the deposited data

Results flagged for a closer look

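A closer look is due where the response to diet differed between mutants and wild type by a test of that difference, edgeR's interaction term with Benjamini-Hochberg adjustment over 10045 genes. This held for 18 of the 83 members tested, all with a positive difference of log2 fold changes, the response in mutants minus that in wild type. Values of 16 are given. Among 60S genes the difference was 0.72 for RpL28, 0.64 for RpL13, 0.65 for RpL17, 0.59 for RpL18, 0.52 for RpL31, 0.48 for RpL26, 0.44 for RpL35, 0.46 for RpL36, 0.57 for RpL35A and 0.44 for RpL32. Among 40S genes it was 0.62 for RpS7, 0.53 for RpS4, 0.54 for RpS20, 0.57 for RpS6, 0.48 for RpS27 and 0.45 for RpS13. Their standard errors lay between 0.12 and 0.15 and adjusted p between 0.0148 and 0.0482. RpL28 kept its call in all 12 fits without 1 library, and RpL32 in none of them.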

How the results depend on the processing

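The medians were stable and the counts of calls were not. Counts of members called are given in the order diet response in mutants, diet response in wild type, mutants over wild type on high sugar, on low sugar, and interaction, where the reported counts were 13, 12, 8, 1 and 18. They were 22, 11, 6, 2 and 18 with RLE factors, 9, 15, 13, 2 and 18 with library totals, 38, 15, 19, 8 and 35 with DESeq2, 3, 13, 1, 1 and 9 with no filter and 4, 16, 5, 2 and 24 with a filter of 5 CPM in 3 libraries. They were 3, 16, 2, 2 and 13 over exon entries that overlap no other gene, 10, 11, 6, 2 and 21 over those that overlap no other entry, 21, 13, 20, 2 and 31 with the cuticle covariate and 8, 9, 12, 0 and 2 without the 3 libraries low in cuticle genes. Fits on the 6 libraries of a contrast gave 3, 3, 6 and 0 for the first 4. The replicate block gave 10, 14, 7, 2 and 10; 10 of the 18 interaction calls were shared. Same-lettered deviations correlated from -0.54 to 0.74 over the pairs of groups, with 6 of 12 libraries correlating best with their own letter. Outside low sugar the letters did not pair the libraries by the limit of 0.1. On low sugar they passed it, although library C of wild type correlated more with library B of mutants (0.39). A block on the 6 low-sugar libraries alone gave 9 calls for the low-sugar contrast. Leaving out 1 library gave 1 to 13, 2 to 18, 0 to 10, 0 to 3 and 1 to 16 calls. The medians then lay between 0.19 and 0.23, -0.22 and -0.12, 0.19 and 0.28, -0.17 and -0.12, and 0.33 and 0.43, with no change of sign in any setting tried. Over exon entries that overlap no other gene the summed share was 10.2% and 8.98% in mutants on high and low sugar and 8.55% and 9.82% in wild type. The cause of these shifts was not tested. For the named members no called direction reversed.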

Other observations

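Of the members' entries that overlap only entries of their own gene, 24 in 22 genes held at least 200 reads, which come from the stretch no other entry covers. On high against low sugar in mutants 7 of the 24 had all libraries lower and 3 all higher, and in wild type 7 were all lower and 1 all higher. Over all genes 23.2% were all lower and 21.5% all higher in mutants, and 21.6% and 18.5% in wild type. These entries were chosen after their values were seen, and no test was run.

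Entry 3 of RpL17 (X:6637983-6638271) held 1.28 ± 0.738 CPM in mutants on high sugar, against 2.69 ± 0.139 CPM on low sugar (SD, n = 3), a log2 ratio of -1.07, while the log2 fold change of the whole gene was 0.24. This entry has 261 of the 228155 reads of RpL17. In wild type it was also lower, with a log2 ratio of -0.62 against -0.41 for the gene. Entry 2 of RpS14a (X:7827775-7828303) held 3.58 ± 0.341 CPM in mutants on high sugar, against 6.78 ± 1.15 CPM on low sugar, a log2 ratio of -0.92, while that of the gene was 0.19. Entry 5 of RpS5a (X:17041721-17042297) held 1.59 ± 0.339 CPM in mutants on high sugar, against 3.07 ± 0.637 CPM on low sugar, a log2 ratio of -0.95, while that of the gene was 0.23. The libraries of these entries did not overlap between the diets in mutants. RpL3 also had lower libraries on high sugar in entries 5 and 9, with log2 ratios of -0.38 and -0.81, against 0.08 for the gene. The 3 entries all higher in mutants went the way of their genes. They were entry 6 of RpL11 (0.41, gene 0.17), entry 7 of RpL37A (0.66, gene 0.26) and entry 3 of RpS9 (0.49, gene 0.45), which holds most reads of RpS9. RpS19a, called lower on sugar in mutants, drew most of its 1245 reads from entry 3, which held 832 reads and had a log2 ratio of -1.24. Its entry 6, with 413 reads, had a log2 ratio of 0.29 and overlapping groups. Whether these entries hold spliced or unspliced transcripts was not tested.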
